A study of Mus musculus with 40 samples.

Results

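The genes described here are 8 lymphocyte genes: *Cd3e*, *Cd3g*, *Cd3d*, *Cd4*, *Cd8a*, *Cd79a*, *Ms4a1* and *Nkg7*. They were chosen by symbol, and each matched 1 of the 54307 gene rows of the expression table. The study asked how endothelial TGFβ signaling and mononuclear phagocytes affect choroidal neovascularization, the growth of choroidal vessels after a laser breaks the membrane under the retina. RNA came from choroid and retina of the same 20 C57BL/6J mice of both sexes, giving 40 libraries. It was taken 3 days after 6 laser burns per eye. For the choroid, the central part that holds the lesions was used.

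All mice carried floxed *Tgfbr2* alleles and received tamoxifen eye drops from an age of 6 to 7 weeks. In *Tgfbr2*ΔEC mice the endothelial *Cdh5* promoter drove a Cre recombinase that tamoxifen activates, and control littermates lacked it. PLX5622 (PLX), a CSF1 receptor inhibitor that depletes mononuclear phagocytes, was given in the diet from the first tamoxifen drop. Each of the groups control –PLX (mice 1 to 5), *Tgfbr2*ΔEC –PLX (mice 6 to 10), control +PLX (mice 11 to 15) and *Tgfbr2*ΔEC +PLX (mice 16 to 20) held 5 mice. By *Xist* and Y-linked genes, mice 1, 2, 3, 6, 9, 11, 12, 13 and 16 were male, so the sexes were not balanced over the groups. Values are the authors' normalized counts, that is estimated reads per gene after scaling of the libraries to each other.

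T cells recognise peptides through the T cell receptor, which signals through the CD3 chains. CD4 and CD8 are coreceptors that bind MHC class II and class I molecules. B cells signal through CD79A beside their surface immunoglobulin and carry CD20, the product of *Ms4a1*, while NKG7 is a protein of cytotoxic granules in natural killer and T cells. In the mouse, some dendritic cells and macrophages carry CD4 too, and some dendritic cells carry CD8A. The healthy retina holds few lymphocytes because of the blood-retina barrier, whereas the choroid is supplied by fenestrated vessels.

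The approximate depth, derived from the steps between low values, was 21628874 to 28174821 reads in choroids and 21033887 to 30421581 in retinas. A level of 3 reads, taken as the floor, was 2.72 to 3.56 normalized counts in choroids and 2.24 to 3.36 in retinas, and it covers counting error only. *Tgfbr2* RNA in whole tissue did not separate the genotypes. Without PLX, control choroids held 9836 to 10849 normalized counts of it and *Tgfbr2*ΔEC choroids 8729 to 11303 (exact two-sided permutation p = 0.524), so that it gives no check of an endothelial deletion. Markers of surface epithelium, which the dissection does not aim at, ranged over the choroids from a summed 8.62 to 20600 normalized counts, and neural retina markers from 6674 to 137700. The tissue labels held in the values: the median log2 difference of choroid against retina was 5.95 for 8 pigment epithelium markers and -5.99 for 10 neural retina markers, beside -0.012 for all tested genes. Erythroid markers were higher with PLX in choroids without passing the test (0 of 5 called, median log2 difference 1.35, adjusted p 0.087 to 0.17, limma), at a summed median of 570 normalized counts (range 324 to 4831) without and 1387 (795 to 5742) with PLX. With their mean log2 level as a covariate, the difference of *Cd4* with PLX described below was -1.97.

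*Cd3e*, *Cd3g* and *Cd3d* lie within 40056 bases of chromosome 9 of the mouse genome GRCm39. *Cd3g* spans chr9:44880870-44891735 on the minus strand, *Cd3d* spans chr9:44893083-44899173 on the plus strand, and *Cd3e* spans chr9:44910037-44920925 on the minus strand. The start sites of *Cd3d* and *Cd3g* are 1348 bases apart and point away from each other. *Cd4* lies at chr6:124841655-124874758 on the minus strand and *Cd8a* at chr6:71350411-71356157 on the plus strand. *Cd79a* lies at chr7:24596740-24601622 and *Nkg7* at chr7:43086497-43087678, both on the plus strand, and *Ms4a1* at chr19:11227039-11243605 on the minus strand. An antisense RNA overlaps *Cd3e*, *Cd79a* and *Ms4a1* each, and an unspliced or noncoding model on the same strand overlaps *Cd3e* (*Gm48720*) and *Cd79a* (*Gm72264*). The libraries were stranded, and whether the quantification split reads between same-strand models is not given in the sources used here, so the levels of *Cd3e* and *Cd79a* are uncertain to that extent.

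The 250 bases before the start of the main transcript are shown for the divergent neighbours *Cd3d* (chr9:44892833-44893082, plus strand) and *Cd3g* (chr9:44891736-44891985, minus strand) and for *Cd4* (chr6:124865185-124865434, minus strand), the member that was called with PLX below. Capitals mark matches, on either strand, to the E-box CAGGTG bound by E proteins or to the ETS core AGGAAG.
Cd3d: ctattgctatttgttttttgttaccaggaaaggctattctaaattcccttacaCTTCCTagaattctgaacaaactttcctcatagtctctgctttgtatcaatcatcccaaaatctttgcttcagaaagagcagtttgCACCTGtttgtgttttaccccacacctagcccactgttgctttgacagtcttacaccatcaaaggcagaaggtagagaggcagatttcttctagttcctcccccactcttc
Cd3g: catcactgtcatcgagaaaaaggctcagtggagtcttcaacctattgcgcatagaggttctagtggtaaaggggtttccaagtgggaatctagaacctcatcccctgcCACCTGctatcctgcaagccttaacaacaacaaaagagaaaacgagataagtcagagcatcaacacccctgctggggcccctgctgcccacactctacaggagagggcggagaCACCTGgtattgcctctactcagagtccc
Cd4: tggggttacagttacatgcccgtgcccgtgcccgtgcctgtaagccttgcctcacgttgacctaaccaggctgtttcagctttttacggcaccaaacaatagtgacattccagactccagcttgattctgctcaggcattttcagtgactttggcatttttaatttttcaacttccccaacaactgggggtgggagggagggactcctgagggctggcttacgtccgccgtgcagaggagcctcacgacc
The window of *Cd3d* held 1 ETS core and 1 E-box, the window of *Cd3g* held 2 E-boxes, and the *Cd4* window held neither. Among the windows of 21770 protein-coding genes, 28.9% held AGGAAG and 17.7% held CAGGTG. Over the 8 genes, AGGAAG was found for *Cd3e* and *Cd3d*, and CAGGTG for *Cd3g*, *Cd3d* and *Ms4a1*. The RUNX core TGTGGT, in 13% of all windows, was found before *Nkg7* alone of the 8, and GAGGAAGT, a PU.1-type site that contains the ETS core, was in 2.08% of all windows and in 0 of the 8.

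In the choroid all 8 genes were low except *Cd4*. Mean levels per kilobase of main transcript over the 20 choroids were 58.7 for *Cd4*, 14.4 for *Cd3g*, 14.0 for *Nkg7*, 9.01 for *Cd3e*, 8.95 for *Cd79a*, 6.06 for *Cd3d*, 3.94 for *Cd8a* and 2.16 for *Ms4a1* normalized counts. *Cd4* was the highest of the 8 per kilobase in 17 of 20 choroids. Along this order, the ranges over the choroids overlapped in all 7 neighbouring pairs. The median ratio of *Cd4* to *Cd8a* per kilobase in the same choroid was 27.1 without PLX and 4.06 with PLX.

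*Cd4* was lower with PLX in the choroid of both genotypes, and the other 7 genes did not pass the test. *Cd4* was 213, 342, 252, 308 and 311 normalized counts in control –PLX choroids and 399, 395, 237, 227 and 239 in *Tgfbr2*ΔEC –PLX choroids. With PLX, *Cd4* was 102, 84.2, 65.3, 57.5 and 50.2 in control and 35, 36.3, 205, 43.7 and 48.9 in *Tgfbr2*ΔEC choroids. The diets did not overlap in *Cd4*, although the choroid of mouse 18 (205) lay close to the lowest choroid without PLX (213). In limma with Benjamini-Hochberg adjustment over 23619 genes, the log2 difference of *Cd4* with PLX, averaged over genotypes on the log2(normalized count + 1) scale, was -2.17 ± 0.26 (SE; 95% confidence interval -2.71 to -1.64; adjusted p = 3.5e-06), a 4.5-fold lower level. It was lower by the same test in control (-2.001 ± 0.36, adjusted p = 0.0013) and in *Tgfbr2*ΔEC choroids (-2.34 ± 0.36, adjusted p = 0.00024). In *Tgfbr2*ΔEC choroids neural retina markers were also lower with PLX, at a summed 11660 to 24070 normalized counts against 50460 to 137700 without. With their mean log2 level as a covariate, the difference of *Cd4* was -2.23 over both genotypes and -2.47 in *Tgfbr2*ΔEC choroids. The exact permutation p for *Cd4* over both genotypes was 3.1e-05, the smallest that 63504 relabellings of diet within genotype can give, and 0.0079 within each genotype, the smallest for 5 against 5. In these whole-tissue libraries, fewer cells of a type and less RNA per cell cannot be told apart. Without mouse 18 the difference of *Cd4* in *Tgfbr2*ΔEC choroids was -2.80.

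**Figure D1:**
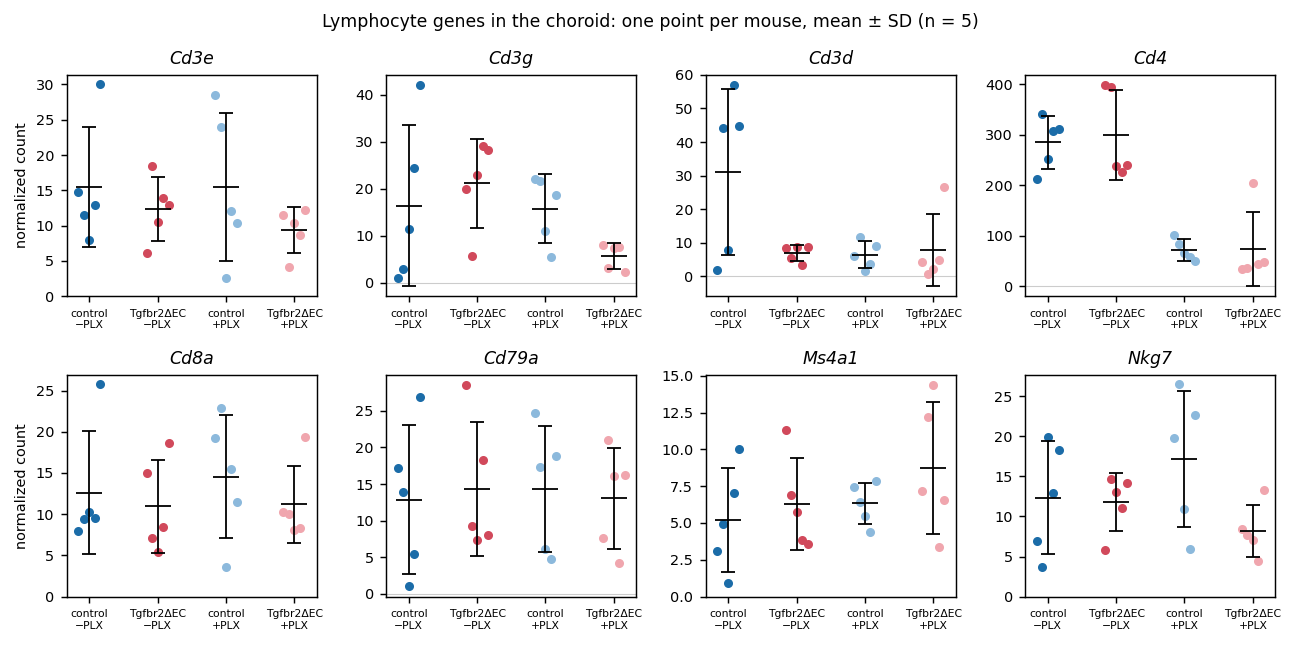
Normalized counts (linear axis) of the 8 genes in the choroid, with 1 point per mouse, in the 4 groups; bars are the mean ± SD of 5 mice. *Cd4* is 212.8 to 399.3 in the choroids without PLX and 35 to 204.9 with PLX, whereas the points of the other genes overlap between diets.

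Of the 8 genes, 1 was called in either direction and 1 was called lower with PLX, against 7.13% of all tested genes called and 5.06% called lower. The share of tested genes called was 3.75% for PLX in control and 4.06% for PLX in *Tgfbr2*ΔEC choroids, and *Cd4* was the member called in both. The median log2 difference of the 8 genes was -0.14, beside 0.00054 for all tested genes.

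The CD3 chains varied widely among mice of the same group. *Cd3g*, the gamma chain, was 0.95, 3.01, 11.4, 24.4 and 42.2 normalized counts in control –PLX and 20.02, 5.67, 22.9, 29.1 and 28.4 in *Tgfbr2*ΔEC –PLX choroids. With PLX, *Cd3g* was 22.1, 21.7, 11.03, 5.52 and 18.7 in control and 8.03, 3.15, 7.36, 7.51 and 2.36 in *Tgfbr2*ΔEC choroids. All 5 *Tgfbr2*ΔEC +PLX choroids thus had less than 10 normalized counts, while control –PLX choroids spanned the ranges of the other groups. Averaged over genotypes, the log2 difference of *Cd3g* with PLX was -0.54 (95% confidence interval -1.56 to 0.47; adjusted p = 0.61, limma).

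Within genotypes the differences of *Cd3g* with PLX pointed in opposite directions, at 0.59 ± 0.69 (SE) in control and -1.67 ± 0.69 in *Tgfbr2*ΔEC choroids on the log2 scale. The interaction of genotype and PLX was -2.26 for *Cd3g* (95% confidence interval -4.29 to -0.23), with an exact permutation p of 0.038 before any adjustment and a limma adjusted p of 0.69 over all genes. It therefore did not pass the test across genes. Surface epithelium markers summed to 8.62 to 47.98 normalized counts in *Tgfbr2*ΔEC +PLX choroids and to 13.15 to 20600 in the other groups. With their mean log2 level as a covariate the interaction for *Cd3g* was -2.30 (adjusted p = 0.67, limma), and with that of the neural retina markers it was -1.75 (adjusted p = 0.9999). The share of tested genes called for this interaction was 0.0%, with 1552 genes at an unadjusted p under 0.05.

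*Cd3d*, the delta chain, was 1.82, 44.2, 7.76, 57.1 and 44.8 normalized counts in control –PLX choroids. The remaining groups held 1 high value of *Cd3d* among 15, in mouse 20: 8.51, 5.43, 8.60, 3.28 and 8.71 in *Tgfbr2*ΔEC –PLX, 6.13, 11.8, 1.55, 3.64 and 9.10 in control +PLX, and 4.24, 0.77, 2.13, 4.82 and 26.7 in *Tgfbr2*ΔEC +PLX choroids. Mice 2, 4 and 5 were thus above all others in *Cd3d*, and mice 1 and 3 of the same group lay within the range of the other groups. The log2 difference of *Cd3d* with PLX was -1.05 (95% confidence interval -2.20 to 0.11; adjusted p = 0.32, limma; exact permutation p = 0.093). *Cd3e*, the epsilon chain, was 6.17 to 30.03 normalized counts without PLX and 2.65 to 28.4 with PLX, with a log2 difference of -0.28 (-1.01 to 0.45; adjusted p = 0.74, limma).

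*Cd8a*, the CD8 alpha chain, did not pass the test with PLX, unlike the other coreceptor gene. Its choroid values were 5.44 to 25.8 normalized counts without PLX (median 9.51) and 3.57 to 22.9 with PLX (median 10.9), a log2 difference of 0.11 (95% confidence interval -0.56 to 0.78; adjusted p = 0.91, limma). The B cell genes overlapped between diets as well. *Cd79a* was 1.01 to 28.5 without and 4.18 to 24.6 with PLX (log2 difference 0.14, interval -0.81 to 1.08), and *Ms4a1* was 0.93 to 11.3 without and 3.35 to 14.4 with PLX (0.42, interval -0.26 to 1.09). *Nkg7* was 3.66 to 19.9 without and 4.47 to 26.6 with PLX, with a log2 difference of 0.0022 (interval -0.67 to 0.68). The intervals of these 4 genes leave out a fall of the size seen for *Cd4* (-2.17), and they still allow differences of up to about 1 on the log2 scale.

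**Figure D2:**
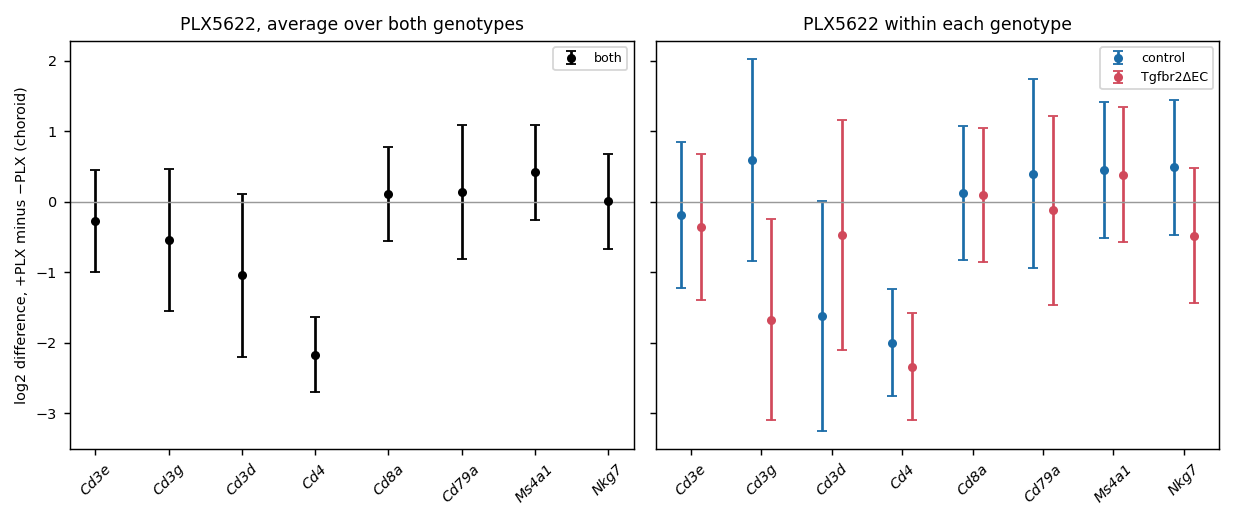
Log2 difference between choroids with and without PLX for each of the 8 genes, with 95% confidence intervals from limma, averaged over both genotypes (left) and within control and *Tgfbr2*ΔEC mice (right). The interval of *Cd4* lies below 0 in both panels, and in the left panel the intervals of the other 7 genes include 0.

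Of 26 further T cell genes, 1 rose with PLX and 2 fell, which is 11.5% called beside 7.13% of all tested genes, with a median log2 difference of -0.28. The receptor constant chains *Trac* (49.99 ± 14.4 normalized counts without and 47.4 ± 13.1 with PLX, SD, n = 10 each) and *Trbc2* (28.9 ± 10.1 and 29.1 ± 6.61) had adjusted p values of 0.91 and 0.93 (limma). The other constant chains in the list did not pass the test either, with log2 differences of -1.01 for *Trbc1* (95% confidence interval -2.02 to -0.0072; adjusted p = 0.26), -0.93 for *Tcrg-C1* (-2.07 to 0.21; adjusted p = 0.38) and -0.50 for *Trdc* (-1.04 to 0.036; adjusted p = 0.30). Those that fell were *Cd28*, the costimulatory receptor (-1.59, adjusted p = 0.00030, limma), and *Ccr7*, the homing receptor of naive lymphocytes and migrating dendritic cells (-1.21, adjusted p = 0.0025). *Lef1*, a transcription factor that also acts in Wnt signaling outside T cells, rose by 0.46 (adjusted p = 0.023). The most abundant of these genes, *Il7r*, *Lef1* and *Tcf7*, had means of 441, 182 and 167 normalized counts over the choroids.

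Of 16 further B cell genes, 3 fell and 0 rose with PLX, that is 18.8% lower beside 5.06% of all tested genes. *Ighm*, the heavy chain of IgM, fell from 710 ± 143 to 103 ± 24.6 normalized counts (SD, n = 10 each; log2 difference -2.79, adjusted p = 5.3e-11, limma). *Bank1*, a B cell scaffold protein, fell from 45.7 ± 13.1 to 5.50 ± 5.97 (-3.22, adjusted p = 3.2e-06), and *Cd79b*, the partner chain of *Cd79a*, fell from 50.8 ± 12.5 to 16.9 ± 6.08 (-1.57, adjusted p = 4.9e-05). The ranges of these 3 genes did not overlap between diets, whereas *Cd79a* and *Ms4a1* in the same choroids did overlap. *Igkc*, the kappa light chain, was 191 ± 110 without and 305 ± 216 with PLX (adjusted p = 0.67). *Cd22*, also abundant in this list, had a difference of -0.69 (adjusted p = 0.16).

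Among 16 natural killer and cytotoxic genes, 1 fell with PLX (6.25%, near the 5.06% of all tested genes), *Klrk1* (-0.85, adjusted p = 0.020, limma), which encodes the activating receptor NKG2D. *Il2rb* and *Ctsw*, the most abundant, had adjusted p values of 0.61 and 0.59. By contrast, 7 of 10 genes shared by all lymphocytes and most other leukocytes fell, among them *Ptprc*, which encodes CD45 (2238 ± 363 to 738 ± 117 normalized counts), *Cd53* (2214 ± 219 to 635 ± 154) and *Coro1a* (1606 ± 192 to 445 ± 156). So did 12 of 16 antigen receptor signaling genes, with the lowest p for the kinase *Lyn* (-1.47), the phosphatase *Ptpn6* (-1.75) and the adaptor *Blnk* (-1.98), which myeloid cells also use. Of the most abundant genes of this list, *Csk* fell by 0.32 (adjusted p = 0.00070, limma), and *Plcg1* (0.26, adjusted p = 0.14) and *Prkcq* (0.08, adjusted p = 0.70) did not pass. The T cell kinase and adaptor genes *Zap70* (0.02, adjusted p = 0.98), *Lat* (-0.24, adjusted p = 0.67) and *Lck* (-0.32, adjusted p = 0.68) did not pass the test. *Cd5* (-0.99, adjusted p = 0.18, limma) and *Cd2* (-0.84, adjusted p = 0.20) of the same T cell list had larger differences and did not pass either. In the signaling list, *Lcp2* (-2.08, adjusted p = 0.00016, limma) and *Rasgrp1* (-0.98, adjusted p = 0.0085) were among the genes that fell.

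Nearly all phagocyte markers and part of the dendritic cell markers were lower with PLX, as was *Cd4*. Of 17 phagocyte markers, 16 fell with PLX in the choroid, with a median log2 difference of -2.64, and their summed level was 42960 to 50540 normalized counts without and 10350 to 15690 with PLX. The lowest p values were those of *Cx3cr1* (-3.47), *C1qa* (-3.40) and *Mrc1* (-4.14). Of 8 dendritic cell markers, 5 fell, with the lowest p for *Siglech* (-2.15), *Itgax* (-1.05) and *Cd209a* (-1.49), while *Xcr1* (-0.14, adjusted p = 0.79, limma), *Clec9a* (-0.80, adjusted p = 0.32) and *Zbtb46* (0.28, adjusted p = 0.11) did not pass. Their summed level was 1379 to 2136 without and 979 to 1444 with PLX, so that the diets overlapped. Mouse 18, the +PLX choroid with the highest *Cd4*, had a summed phagocyte level of 11250, within the range of its group (10350 to 13690), and a dendritic level of 1443, the highest of its group. Its *Cd3e* (10.4), *Cd3g* (7.36) and *Cd3d* (2.13) were within the range of the other 4 mice of its group. Its *Ms4a1* (14.4) was the highest of all 20 choroids, and the summed genes shared by all lymphocytes (3437, against 2165 to 2806) and further B cell genes (755.6, against 668.4 to 713.5) were the highest of its group. Its *Cd8a* (8.10, against 8.26 to 19.4) and its summed natural killer and cytotoxic genes (210.1, against 250.3 to 385.8) were the lowest of its group, and its further T cell genes (1248, against 935.2 to 1289) lay within it. The part of phagocytes and dendritic cells in the fall of *Cd4* was not tested.

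**Figure D3:**
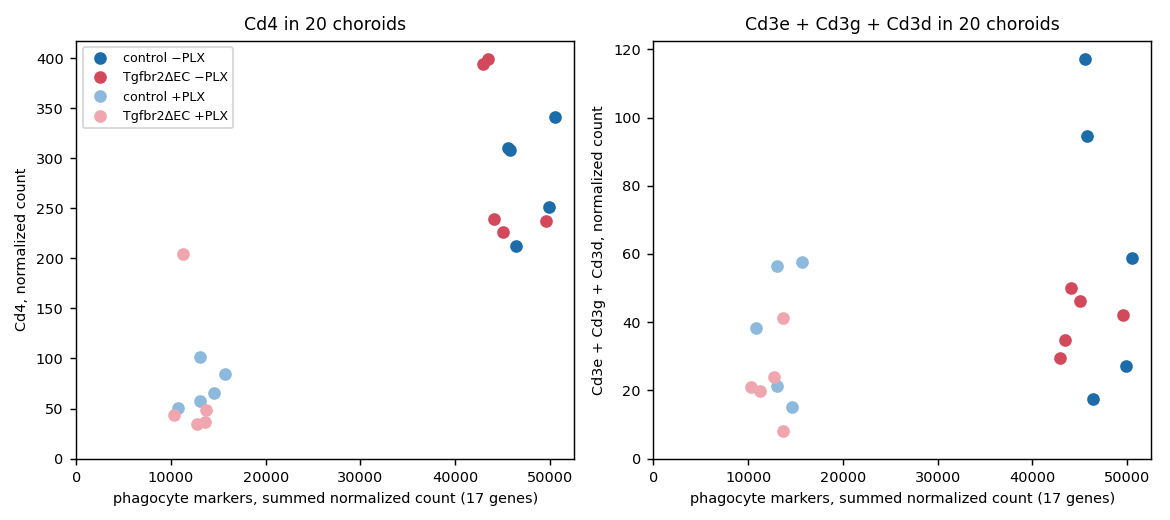
*Cd4* (left) and the sum of *Cd3e*, *Cd3g* and *Cd3d* (right), in normalized counts, plotted against the summed normalized counts of 17 phagocyte markers, with 1 point per choroid (20 choroids, linear axes). The diets form separate clouds along the phagocyte axis and separate in *Cd4*, with mouse 18 at 204.9 above the rest of its group, but they overlap in the summed CD3 chains.

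No member was called between the genotypes in the choroid. Without PLX, 0 of 8 genes were called, against 0.00423% of tested genes (1 gene), and differences ranged from -1.39 for *Cd3d* to 0.96 for *Cd3g* on the log2 scale. Leaving out each mouse in turn moved these differences widely, to between -2.09 (without mouse 1) and -0.99 (without mouse 4) for *Cd3d* and between 0.37 (without mouse 1) and 1.48 (without mouse 5) for *Cd3g*. With PLX, 0 of 8 were called, against the same share, 0.00423%, and differences ranged from -1.30 for *Cd3g* to 0.30 for *Ms4a1*. At an unadjusted p under 0.05, limma gave 0 of the 8 members in either comparison, against 2184 and 889 of all tested genes. Neural retina markers summed to 6674 to 30250 normalized counts in control –PLX choroids but 50460 to 137700 in those of *Tgfbr2*ΔEC –PLX mice. With their mean log2 level as a covariate, the difference without PLX was -1.775 for *Cd3d* and 0.44 for *Cd3g*. The exact permutation p of *Cd3g* between genotypes with PLX was 0.032 before adjustment. *Cd4* was 285 ± 51.8 normalized counts in control –PLX and 300 ± 89.1 in *Tgfbr2*ΔEC –PLX choroids (SD, n = 5 each), and 71.8 ± 20.99 and 73.8 ± 73.5 with PLX. The last of these means rests on mouse 18: the other 4 *Tgfbr2*ΔEC +PLX choroids lay at 35 to 48.9, and without mouse 18 the genotype difference of *Cd4* with PLX moved from -0.30 to -0.76 (95% confidence interval -1.25 to -0.27; adjusted p = 1.0, limma). The interaction for *Cd4* was -0.34 (interval -1.41 to 0.72; adjusted p = 0.99, limma), and -0.80 without mouse 18 (interval -1.48 to -0.13; adjusted p = 0.65).

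In the retina most members were at or near 0. *Cd3g* was above 0 in 1 of 20 retinas (0.23 normalized counts), *Nkg7* in 1 (1.92) and *Cd3e* in 2 (0.94 and 1.52), all below the floor. *Cd3d* was above 0 in 12 retinas, at up to 2.38 and never above the floor. *Cd4*, *Cd8a*, *Cd79a* and *Ms4a1* were above the floor in 14, 15, 6 and 11 of 20 retinas, and these 4 passed the minimum mean of 1 normalized count, so that 4 of 8 members were tested.

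None of these 4 genes was called with PLX in the retina, where 1.09% of tested genes were called. *Cd4* was 4.61, 6.33, 10.8, 1.82 and 7.91 normalized counts in control –PLX and 5.01, 8.03, 4.64, 8.63 and 9.08 in *Tgfbr2*ΔEC –PLX retinas. With PLX, *Cd4* was 4.18, 0, 2.28, 3.64 and 1.43 in control and 2.44, 4.55, 1.79, 4.25 and 3.45 in *Tgfbr2*ΔEC retinas. All retinas with PLX were below those without in *Tgfbr2*ΔEC mice, and the diets overlapped in controls. The log2 difference of *Cd4* was -1.06 ± 0.33 (SE), with an exact permutation p of 0.0018 over both genotypes and a limma adjusted p of 0.22 over 23243 genes. The log2 difference was 0.40 for *Cd8a* (exact permutation p = 0.33), -0.57 for *Cd79a* (p = 0.21, same test) and -0.25 for *Ms4a1* (p = 0.58, same test), each with a limma adjusted p of 0.9997. For *Cd8a* it was 0.97 in control (exact permutation p = 0.048 before adjustment) and -0.17 in *Tgfbr2*ΔEC retinas (p = 0.72, same test). These levels lie near the floor, and 14 of 17 phagocyte markers fell in the same retinas (median log2 difference -3.68). Their part in the *Cd4* values was not tested. For genotype in the retina, 0 of 4 members were called both without PLX, where 0.0% of all tested genes were called, and with PLX, again 0.0%, and limma gave 0 of the 4 and 758 or 629 of all genes at an unadjusted p under 0.05.

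*Cd4*, *Cd79a*, *Cd8a* and *Ms4a1*, the 4 members that reached the minimum mean in both tissues, were called higher in choroid than in retina. This compares with 82.0% of 24317 tested genes called in either direction and 40.8% called higher in choroid, so a call by itself sets no gene apart here. The log2 difference was 4.76 for *Cd4*, 2.24 for *Cd79a*, 1.23 for *Cd8a* and 1.06 for *Ms4a1* (adjusted p between 2.1e-22 and 0.00062, limma). *Cd3e*, *Cd3g*, *Cd3d* and *Nkg7* reached the minimum mean only through their choroid level and so had to differ, and their differences of 3.54, 3.53, 2.38 and 3.50 are given as a description. Choroid exceeded retina in 20 of 20 mice for *Cd3e*, *Cd3g*, *Cd4* and *Nkg7*, in 19 for *Cd3d* and *Cd8a*, in 18 for *Cd79a* and in 15 for *Ms4a1*.

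In approximate reads over all 20 mice, *Cd3e* had 255 in choroids and 3 in retinas, a ratio per sequenced read of 84.2 (95% interval 28.5 to 411, counting error only). *Nkg7* had 240 and 2 (ratio 119, interval 32.6 to 988). *Cd4* had 3568 and 101 (ratio 35, interval 28.7 to 43.1), a smaller ratio than these, although it led the log2 differences. *Cd3g* had 290 and 0, and against the floor of 3 reads in each retina it was at least 4.79-fold higher in choroid. *Cd8a* (238 and 102 reads, ratio 2.31) and *Ms4a1* (130 and 61, ratio 2.11) were the members with the smallest ratios, below *Cd79a* (264 and 44, ratio 5.95) and *Cd3d* (260 and 17, ratio 15.2).

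**Figure D4:**
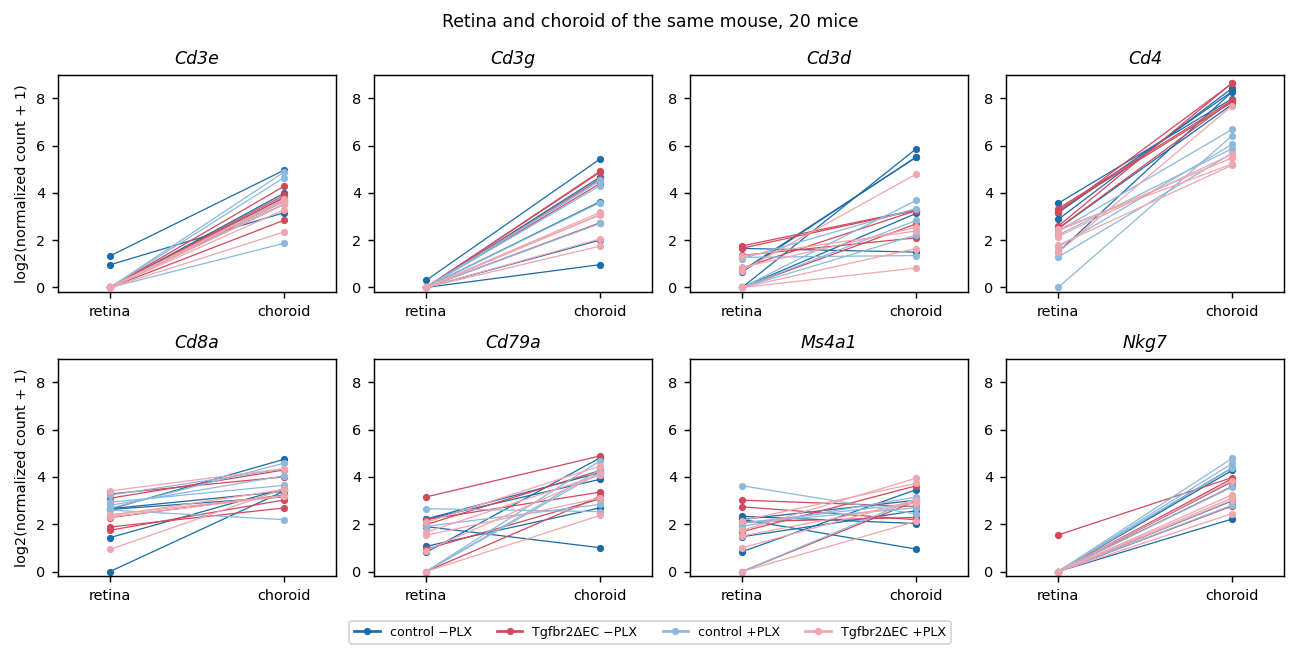
Log2(normalized count + 1) of each gene in retina and choroid, with a line joining both tissues of 1 mouse (20 mice, coloured by group). *Cd3e*, *Cd3g* and *Nkg7* start at or near 0 in retina, all lines rise for these genes and for *Cd4*, and lines in both directions are seen for *Ms4a1*, which is higher in choroid in 15 of 20 mice.

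The members varied together only in part. Over 28 pairs, the correlation across 20 choroids of log2 values centred on their group means ranged from -0.02 to 0.72, with a median of 0.27, and exceeded 0.5 in 3 pairs. These were the B cell genes *Cd79a* and *Ms4a1* (0.72), *Cd3e* and *Cd8a* (0.62), and *Cd3d* and *Cd8a* (0.52). For *Cd3e* and *Cd8a*, Spearman's rho was 0.44, and r was 0.43 without the 2 choroids farthest from the median of *Cd3e* and 0.29 without those farthest in *Cd8a*. For *Cd79a* and *Ms4a1*, rho was 0.62 and r without such choroids 0.51 or 0.60, and for *Cd3d* and *Cd8a* they were 0.48 and 0.53 or 0.43. The CD3 chains, which are subunits of 1 complex, had correlations of 0.24 (*Cd3e* and *Cd3g*), 0.40 (*Cd3e* and *Cd3d*) and 0.41 (*Cd3g* and *Cd3d*), at a summed level of 255 to 290 reads over the 20 choroids. *Cd4* had correlations of 0.23, 0.12 and 0.12 with *Cd3e*, *Cd3g* and *Cd3d*. The points share the library and its scaling, and these values are descriptive.

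Among 17597 genes with a mean of at least 10 normalized counts, the pattern most like that of *Cd3d* over the 20 choroids was that of *Lck*, the kinase bound to the coreceptors (Pearson r = 0.76). The next were *4833412C05Rik* (0.75) and *Phf12* (0.74). For *Cd79a* the closest were *Icam2* (0.78), *Zfand6* (0.78) and *Elp3* (0.76), and for *Cd4* they were *Spata31f1d* (0.84), *Ambra1* (0.81) and *Hcfc2* (0.75). *Cd3e* was closest to *Gm9920* (0.86), *Fbxo24* (0.83) and *Abcf3* (0.82), and *Cd3g* to *Chn1os3* (0.85), *Aftph* (0.78) and *Tmsb15b2* (0.73). The closest genes were *Tmem147os*, *Ntmt1* and *Acy1* for *Cd8a* (0.77 to 0.80), *Dnajc11*, *Ahcy* and *Actg2* for *Ms4a1* (0.74 to 0.80), and *Necab2*, *Cp* and *Scd3* for *Nkg7* (0.73 to 0.75). Apart from *Lck*, no gene of the T cell, B cell, natural killer or signaling lists was among these 24.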

How the data were processed

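RNA of 40 libraries (choroid and retina of 20 mice, 5 per group) was analysed. The authors quantified stranded single reads with Salmon 1.10.1 against GRCm39, imported the estimates with tximport, normalized them with DESeq2 1.36.0 and deposited the resulting signal per gene, called normalized counts here. The values are not whole. Divided by the estimated value of 1 read, 56.16% to 75.23% (choroid libraries) and 47.67% to 72.82% (retina libraries) of low values came within 0.1 of an integer, so no count test was run and depth is approximate. Both tissues had been scaled together.

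Symbols came from GENCODE release 39, later than the release the authors used; 53700 of 54307 identifiers matched. Normalized counts were transformed as log2(normalized count + 1), genes whose mean over the libraries was under 1 were left out, and limma (version 3.58.1, trend option, R 4.3.3) was run in 1 fit of the 4 groups per tissue, or of 8 groups for the tissue comparison. Fold changes on this scale understate the change of low genes. Adjusted p values (Benjamini-Hochberg) at or under 0.05 were called. Single members were tested by exact permutation, two-sided (numpy 2.4.6). Intervals are at 95%, and those of the read ratios came from the beta distribution (scipy 1.17.1). The procedure was tested on simulated data.

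Choroid and retina with the same number come from the same mouse and are paired in that sense; the correlation of their deviations from the group means ranged from -0.16 to 0.29 (median 0.13). Other groups share no mice. The labels do not say whether mice of a group were littermates, so p values measure the spread between these mice.

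The members and gene lists were chosen with earlier results of these data known. Named are the members, the 3 most abundant genes of each lymphocyte list, up to 3 called genes of a list and direction with the lowest p, and the 3 genes most like each member. *Trac*, *Trbc2*, *Trbc1*, *Tcrg-C1*, *Trdc*, *Xcr1*, *Clec9a* and *Zbtb46* were named after their values were seen. So were *Zap70*, *Lat*, *Lck* (with PLX), *Cd5*, *Cd2*, *Lcp2* and *Rasgrp1*. The authors' covariates (sex and a neuronal percentage) were not used in the main fits. Scores of marker genes replaced them among the alternatives. Because the sexes were not balanced over the groups, differences between genotypes cannot be fully told apart from sex. Sequences are from the GRCm39 genome. Alternatives were other pseudocounts, minimum means, scalings and variance estimates, marker scores as covariates, fits of 10 mice, a replicate block for mice, and leaving out each mouse. An alternative, the surface epithelium score, was chosen after seeing the data.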

Additional observations from a re-analysis of the deposited data

Results flagged for a closer look

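In 55 combinations of a member and a group with any value above 0, 7 held a mouse whose distance from its nearest neighbour took up more than 0.71 of the range of its group. For normally distributed values, chance gives this in about 1 in 20 groups, or 2.75 here; that rate does not carry over to low counts, and in 2 of the 7 a single value above 0 fixes the gap at 1.0. The *Cd4* value of mouse 18 in *Tgfbr2*ΔEC +PLX choroids was 205 normalized counts, and the gap to the next mouse was 0.918 of the range. *Cd3d* and *Cd8a* in the same group were highest in mouse 20, at 26.7 and 19.4 (gaps of 0.844 and 0.808), and *Cd8a* in control –PLX choroids was highest in mouse 5, at 25.8 (0.865). In the retina, *Ms4a1* was 11.3 in mouse 14 of control +PLX (0.723). *Cd3g* in mouse 5 of control –PLX (0.227) and *Nkg7* in mouse 7 of *Tgfbr2*ΔEC –PLX (1.92) were the only values above 0 in their groups (gaps of 1.0 each), both below the floor.

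The effect of PLX on *Cd3g* in the choroid differed between genotypes by -2.26 on the log2 scale in an exact permutation test (p = 0.038 before adjustment, limma adjusted p = 0.69). Leaving out each mouse in turn gave -2.78 to -1.67. Of the 8 members, it was the only one with p under 0.05 for this difference in the choroid.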

How the results depend on the processing

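Counts of members called kept their values under all alternatives run, except that a minimum mean of 10 left *Cd4* alone to be tested between tissues, so that 1 member was called in place of 8 (4 of which reached the minimum mean through the choroid alone). With the mouse as a replicate block, 8 members were called between tissues, and the pairing changed no call. *Cd4* with PLX in the choroid stayed called under each of 31 alternatives (-2.40 to -1.97, adjusted p 2.4e-09 to 0.00021), and *Cd4* in the retina stayed uncalled (-1.23 to -0.57, the smallest with a pseudocount of 5; adjusted p 0.077 to 0.41). Among uncalled differences with PLX in the choroid, the sign turned for *Cd8a* (-0.0055 with the erythroid and -0.23 with the surface epithelium score), *Cd79a* (-0.34 and -0.52) and *Nkg7* (-0.0045 scaled to totals, -0.030 with the sex, -0.015 with the neural retina and -0.099 with the surface epithelium score); the cause was not tested. With the surface epithelium score, *Cd3e* moved from -0.28 to -0.71, and *Cd3d* from -1.05 to -1.37 with an interval of -2.70 to -0.037 (adjusted p = 0.28, limma). Leaving out a mouse gave -0.42 to -0.044 for *Cd3e*, -0.84 to -0.28 for *Cd3g*, -1.40 to -0.85 for *Cd3d*, -0.15 to 0.32 for *Cd79a* (below 0 without mouse 3), -0.16 to 0.15 for *Nkg7*, and -0.0076 to 1.11 for *Cd3g* in controls (below 0 without mouse 1). It gave 0.0046 to 0.30 for *Cd8a* and 0.23 to 0.55 for *Ms4a1* in the choroid. In the retina it gave 0.17 to 0.57 for *Cd8a*, -0.79 to -0.39 for *Cd79a* and -0.49 to -0.014 for *Ms4a1* with PLX. Between genotypes in choroids with PLX, *Ms4a1* ranged from 0.098 to 0.55.

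Apart from *Cd4*, a member had 130 to 290 reads in all over the 20 choroids, and in retinas *Cd3e*, *Cd3g*, *Cd3d* and *Nkg7* were below the floor and did not enter the fit across genes. The simulated data pooled genes over a wide range of levels, so which difference can be detected at these levels was not measured.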
